A study of Mus musculus with 8 samples.

Results

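The 10 core genes of the NF-κB pathway were examined for H3K9ac, the acetylation of histone H3 lysine 9 that marks active promoters, in BM cells of *NUP98-HOXD13-tg* mice given curcumin or vehicle. They comprise the subunits *Rela*, *Relb*, *Rel*, *Nfkb1* and *Nfkb2*, the inhibitors *Nfkbia*, *Nfkbib* and *Nfkbie*, the kinase *Ikbkb* and the deubiquitinase *Tnfaip3*. They were chosen by name, not by their H3K9ac, and are 10 of 21938 protein-coding genes of the nuclear chromosomes. All 10 had an H3K9ac peak within 1 kb of a transcription start site (TSS) in all 6 libraries, which held for 9341 of the 21938 genes.

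All mice were labelled C57BL/6 and carried the *NUP98-HOXD13* transgene, a model of myelodysplastic syndrome that can progress to acute myeloid leukaemia, and 1 of 3 forms of the transcription factor GFI1. *GFI1-36S* is the common form, *GFI1-36N* carries an amino acid variant, and *GFI1-KD* mice express less GFI1. For each form, 1 library came from cells labelled as whole BM of the vehicle group, which received DMSO, and 1 from the group given 20 mg/kg curcumin weekly by intraperitoneal injection. The ages of the mice, the number of mice behind a library and the disease stage of each are not given in the sources used here. Curcumin, a plant polyphenol, is described by the study as an inhibitor of histone acetyltransferases, and the question here is how H3K9ac at these genes differed between curcumin and vehicle in each genotype. Since each group is a single library, differences could not be checked in replicates, and p-values are not printed.

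NF-κB factors are dimers of the 5 subunits, held inactive in the cytoplasm by IκB proteins. Signals from receptors of TNF, interleukin 1 and microbial products activate the IκB kinase, IκB is degraded, and the dimers enter the nucleus and bind κB sequences at their targets. Among these targets are the inhibitors IκBα and A20 themselves, which close a negative feedback loop. In blood cells the pathway is known for its part in inflammation, myeloid development and the survival of leukaemic cells.

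To show the κB sequences that lie under these peaks, the promoter windows of RefSeq (GRCm38.p6), from 250 bases before to 50 after each start, were searched on both strands for 8 strings of 10 letters, namely GGGANNTTCC, GGGANNTCCC, GGGANNCTCC, GGGANNCCCC, GGGGNNTTCC, GGGGNNTCCC, GGGGNNCTCC and GGGGNNCCCC. Windows were held for 7 of the 10 genes, all but *Relb*, *Nfkb1* and *Ikbkb*. A match was found in 5 of these 7 genes and in 7 of their 10 windows, against 10.8% of all 16522 coding genes with a window and 9.43% of their 20150 windows. *Nfkb2* had 3 of these windows. Its windows 2 and 3 overlap, and the only match of window 3 is also counted in window 2. *Rela* and *Nfkbib* had none of these letters in their windows. A match is a description of the letters, not evidence of binding. The 9 matched places are printed 5′ to 3′ on the strand of the gene with 15 bases or fewer on each side and with the matched letters in capitals (overlapping matches are joined), and the position is that of the first capital relative to the RefSeq start.
*Rel* at −92, chr11:23771042-23771071, minus strand: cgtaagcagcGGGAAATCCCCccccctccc
*Nfkb2* at −39, chr19:46304688-46304717, plus strand: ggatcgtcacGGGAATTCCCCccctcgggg
*Nfkb2* at −11, chr19:46304716-46304745, plus strand: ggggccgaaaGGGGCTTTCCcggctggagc
*Nfkb2* at −236 of a second start, chr19:46305449-46305478, plus strand: tccgacggcaGGAATGTCCCcacaaaagcc
*Nfkb2* at 11 of that start, chr19:46305695-46305724, plus strand: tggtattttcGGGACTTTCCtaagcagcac
*Nfkbia* at −29, chr12:55492657-55492686, minus strand: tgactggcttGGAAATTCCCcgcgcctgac
*Nfkbie* at −106, chr17:45555584-45555613, plus strand: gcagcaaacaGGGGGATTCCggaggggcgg
*Tnfaip3* at −125, chr10:19015516-19015545, minus strand: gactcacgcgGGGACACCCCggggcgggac
*Tnfaip3* at −12, chr10:19015403-19015432, minus strand: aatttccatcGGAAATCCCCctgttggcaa
Of these 9 places, 6 lay inside a listed H3K9ac peak in all 6 libraries. The downstream match at the second *Nfkb2* start lay outside the peak in the *GFI1-36S* curcumin library, and the match of *Tnfaip3* at −125 fell between 2 peaks in the *GFI1-KD* curcumin library. The match of *Nfkbie* was inside a peak in 2 of 6 libraries, the vehicle libraries of *GFI1-36S* and *GFI1-KD*, and in the other 4 the peak of this gene began between the match and the start site.

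The whole stretch before the start of *Nfkbia* is shown because this gene had the largest difference in H3K9ac rank in *GFI1-36N* mice, and its capitals again mark the κB match.
*Nfkbia*, chr12:55492648-55492897, minus strand: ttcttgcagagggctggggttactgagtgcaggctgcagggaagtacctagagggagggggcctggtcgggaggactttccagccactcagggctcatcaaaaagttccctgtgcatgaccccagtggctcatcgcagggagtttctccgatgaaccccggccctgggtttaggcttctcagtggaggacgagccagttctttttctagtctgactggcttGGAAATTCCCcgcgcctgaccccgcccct

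The deposited lists held between 20354 and 49213 peaks per library, the fewest in *GFI1-36S* mice with curcumin and the most in *GFI1-36N* mice with curcumin, and 9726 to 11801 genes had a promoter peak. The median peak summit held 24 to 36 fragments, which were recovered as whole numbers from the fold enrichment and p of the authors' peak caller for at least 98.6% of the peaks of a library. The *GFI1-36S* curcumin library stood apart from the other 5. It had promoter peaks at 0 of 14 neutrophil genes, 1 of 10 monocyte and macrophage genes, 2 of 11 erythroid genes and 1 of 11 stem and progenitor genes, and at 13 of 14 T cell genes. In the other 5 libraries these numbers were 9 to 13, 9 or 10, 5 to 11, 9 to 11 and 3 to 7. It also listed 3 peaks on chromosome Y and none at the *Xist* promoter, whereas each of the other 5 listed none on Y and 1 at *Xist*. The 2 *GFI1-36S* lists are named for the reverse of their labelled treatments. The labels were followed, and every *GFI1-36S* result below rests on this pair, whose difference in cell markers, sex chromosome peaks and peak number cannot be told apart from curcumin. In *GFI1-36N* the list names, but not the labels, give 1 altered allele for the vehicle mouse and both for the curcumin mouse. Every *GFI1-36N* result below rests on this pair, and if the names hold, allele number cannot be told apart from curcumin. In BM as a whole, fewer cells of a type and less acetylation per cell cannot be told apart.

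Because peak values are not normalised between libraries, each gene's strongest promoter peak was placed on a rank of 0 to 100 by its fold enrichment among all genes with a promoter peak in that library, where 100 is the strongest. A change of 10 points or more in a pair was counted. The recovered summit fragments give each rank a 95% interval, and they give the height ratio of curcumin to vehicle, divided by the median ratio over all genes of the pair so that 1 is the typical gene. These intervals cover counting error alone, not the difference between mice.

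The median rank of the NF-κB genes lay above 50 in every library, with 6 to 9 of 10 genes above it. The median with vehicle and then curcumin was 77.7 and 55.9 in *GFI1-36S*, 72.0 and 76.2 in *GFI1-36N* BM, and 75.9 and 79.5 in *GFI1-KD* BM. *Nfkbie* was the lowest in all 6 libraries, and *Rela*, *Ikbkb* or *Nfkbia* was the highest. No gene of the 10 gained or lost its promoter peak. Over all genes, 16.2% of 11608 in *GFI1-36S*, 1.84% of 12022 in *GFI1-36N* and 6.73% of 11908 in *GFI1-KD* mice had a peak with vehicle alone. With curcumin alone the shares were 1.99%, 5.73% and 1.19%. These shares are over genes of every rank, and rank was not matched.

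In *GFI1-36S* mice, 5 of 10 genes ranked at least 10 points lower with curcumin, namely *Nfkb1*, *Nfkb2*, *Nfkbib*, *Ikbkb* and *Tnfaip3*, and 41.4% of all genes did so. None ranked at least 10 points higher, against 15% of all genes. In *GFI1-36N* mice, *Nfkb2*, *Nfkbia* and *Tnfaip3* ranked at least 10 points higher, against 19.3% of all genes, and *Relb*, *Nfkbib* and *Nfkbie* at least 10 points lower, against 11.3%. In *GFI1-KD* mice, *Nfkb2* ranked at least 10 points higher, against 9.47%, and *Tnfaip3* at least 10 points lower, against 20.6%. The median change of the 10 genes was −9.83, −6.75 and 1.79 points in the 3 genotypes, and that of all genes −6.61, 1.89 and −2.34 points. The median of the 10 genes was thus lower than that of all genes in *GFI1-36S* and *GFI1-36N* mice and higher in *GFI1-KD* mice. Markers of other cells moved in the *GFI1-KD* pair as well. Promoter peaks were listed at 13 of 14 neutrophil genes with vehicle and at 9 with curcumin, all but *S100a9*, *Ltf*, *Camp*, *Ngp* and *Lcn2*, and the ranks of the list summed to 369 and 174. For the erythroid list the numbers were 11 and 5 of 11, with summed ranks of 296 and 112, and *Gata1*, *Epor* and *Hba-a1* were among those without a peak with curcumin. The summed rank of the monocyte and macrophage list was 208 and 305, and that of the stem and progenitor list 243 and 401. Marker lists also moved in the *GFI1-36N* pair. There the summed rank was 365 and 226 for monocyte and macrophage genes and 194 and 286 for neutrophil genes. For the erythroid list it was 129 and 206, with peaks at 9 and 7 of 11 genes, and for the stem and progenitor list 434 and 479. The part of these shifts in the *GFI1-KD* and *GFI1-36N* results was not tested.

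**Figure D1:**
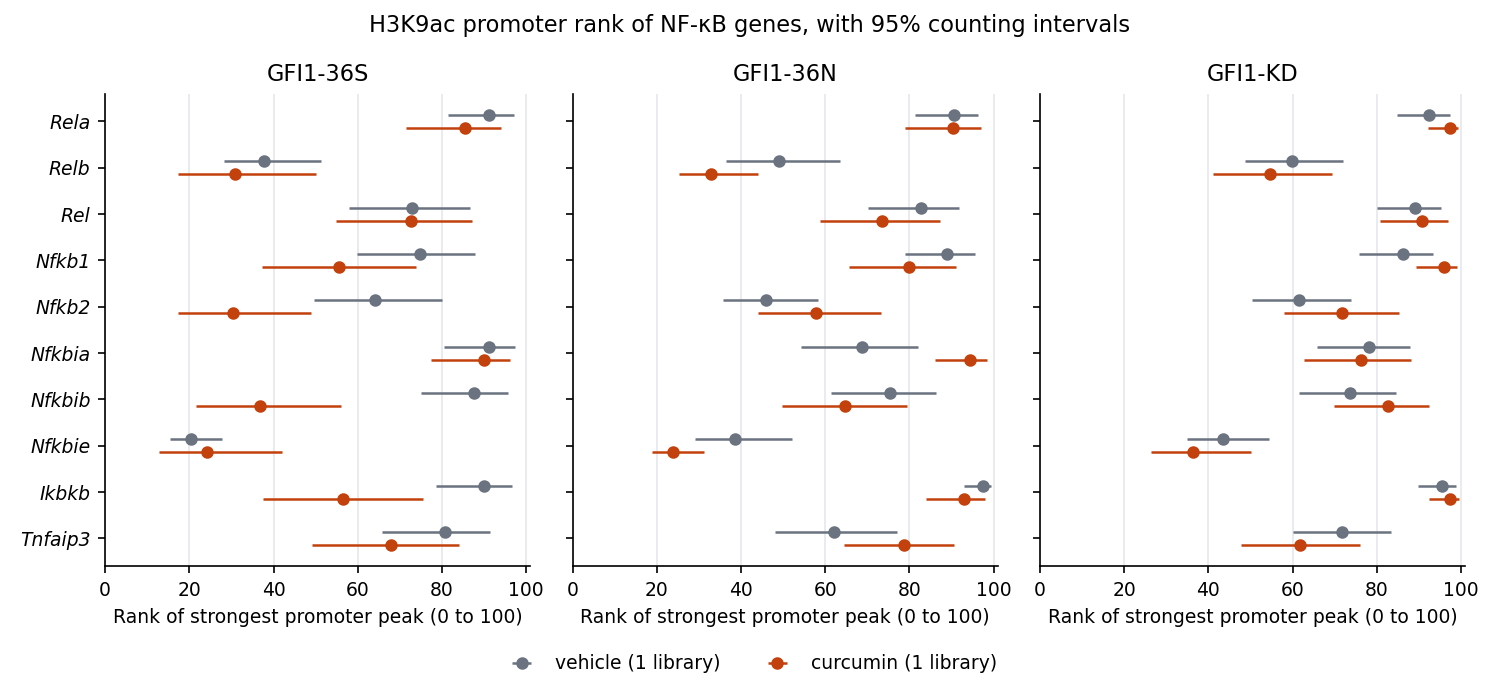
Rank of the strongest promoter peak of each gene on a scale of 0 to 100 (x axis) for the vehicle (grey) and curcumin (orange) library of each genotype, with 95% counting intervals as lines. The intervals of the 2 libraries part for *Nfkb2*, *Nfkbib* and *Ikbkb* in *GFI1-36S* and for *Nfkbia* in *GFI1-36N* mice, and overlap for every other gene and genotype.

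Among the subunits, *Rela*, which encodes p65 and carries the main transactivation domain of the pathway, had the steadiest promoter. Its rank with vehicle and curcumin was 91.2 and 85.4 in *GFI1-36S*, 90.6 and 90.4 in *GFI1-36N* BM, and 92.5 and 97.3 in *GFI1-KD* BM. All 6 values lay above 85, and the height ratio relative to all genes was 0.966 (95% interval 0.765 to 1.21), 0.955 (0.781 to 1.17) and 1.15 (0.961 to 1.38), so no interval excluded the typical gene.

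*Relb*, the partner of p52 in the non-canonical branch, was the weakest subunit promoter in 4 of 6 libraries. Its rank was 37.7 and 30.9 in *GFI1-36S*, 48.95 and 33.0 in *GFI1-36N* BM, and 59.9 and 54.6 in *GFI1-KD* BM. It was lower with curcumin in all 3 pairs, and the 2 intervals overlapped in each. When ranked only against genes peaked in both lists, the *GFI1-36S* change of −6.84 points turned to 2.55. Its peak was also the narrowest of the 5 subunits, at 521 to 968 bp.

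*Rel*, which encodes the lymphoid and myeloid subunit c-Rel, had ranks of 72.9 and 72.8, 82.8 and 73.5, and 89.1 and 90.8 in the same order. The 2 values of a pair lay within 10 points of each other in all 3 genotypes. Its relative height ratio was 1.06 (0.811 to 1.39) in *GFI1-36S*, 0.878 (0.704 to 1.09) in *GFI1-36N* and 1.04 (0.861 to 1.26) in *GFI1-KD* mice, each including 1.

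*Nfkb1* encodes p105, the precursor of p50. Its rank was 74.7 and 55.5 in *GFI1-36S*, 88.9 and 79.8 in *GFI1-36N* BM, and 86.2 and 96.1 in *GFI1-KD* BM, lower with curcumin in the first 2 and higher in the third. The summit held 247 fragments with vehicle and 216 with curcumin in *GFI1-KD* mice, a relative height ratio of 1.22 (1.02 to 1.48), and it was the 1 gene of 10 whose interval lay above 1 there, against 7.63% of all genes. No gene had an interval below 1 in that genotype, against 7.9% of all genes.

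*Nfkb2* encodes p100, the precursor of p52 and itself an inhibitor. Its summit held 140 and 57 fragments in *GFI1-36S*, where it ranked 64.1 and 30.4. Its relative height ratio there was 0.732 (0.529 to 1.003), an interval that included 1. Its rank was 46.1 and 57.8 in *GFI1-36N* BM, and 61.5 and 71.7 in *GFI1-KD* BM. The direction in *GFI1-36N* mice depended on the measure. The summit held 155 fragments over a local background of 8 with vehicle and 133 over 4.78 with curcumin, so that fold enrichment was higher with curcumin, at 23.2 against 16.6, while the relative height was 0.854 (0.672 to 1.08) of vehicle. Ranked by −log10 p, the change was −4.10 points in place of 11.8. The peak of this gene also covered the start of a noncoding gene, AC114539.1.

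Among the inhibitors, *Nfkbia*, which encodes IκBα, the inhibitor that NF-κB induces first, had the clearest difference in *GFI1-36N* mice. Its summit held 151 fragments with vehicle and 209 with curcumin, and its fold enrichment was 21.8 and 36.3. The rank was 68.7 (54.3 to 82.1) and 94.4 (86.2 to 98.4), the lowest and the highest of this gene over the 6 libraries, and the intervals did not overlap. The relative height ratio was 1.38 (1.11 to 1.71), and it was the 1 gene of 10 with an interval above 1 in this genotype, against 7.37% of all genes. In *GFI1-36S* mice its rank was 91.1 and 89.9, and in *GFI1-KD* mice 78.1 and 76.3, differences under 2 points. The interval of the *GFI1-36N* vehicle library overlapped those of both *GFI1-36S* and both *GFI1-KD* libraries. For *GFI1-KD* these were 65.8 to 87.9 with vehicle and 62.7 to 88.2 with curcumin. Whether the *GFI1-36N* vehicle library was low or the curcumin library high was not tested. All 10 alternatives in the choice of peaks, windows and ranks left the *GFI1-36N* difference between 24.2 and 27.3 points.

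*Nfkbib* encodes IκBβ. Its summit held 183 fragments with vehicle and 58 with curcumin in *GFI1-36S* mice, and its rank was 87.7 and 36.7, the largest difference of the 30 pairs of values. The relative height ratio was 0.570 (0.417 to 0.770). With *Ikbkb* it made up the 2 genes of 10 with an interval below 1 in that genotype, against 13.4% of all genes, and none had an interval above 1, against 16%. In *GFI1-36N* mice the rank was 75.3 and 64.8, and in *GFI1-KD* mice 73.6 and 82.7, with overlapping intervals. Of the TSSs used here for *Nfkbib*, the strongest peak lay wholly upstream of the outermost in 5 of 6 libraries. In the *GFI1-KD* vehicle library it lay on both sides of that TSS. The gene is annotated farther upstream, to chr7:28767512, and the summit of this peak lay in an intron in all 6 libraries. The peak covered a start of the neighbouring gene *Sirt2*, a deacetylase, in all 6, so the ranks and ratios above may belong to either gene. The same 5 libraries listed a separate peak downstream of that *Nfkbib* TSS. It held 114 and 52 fragments at its summit in *GFI1-36S* mice, with a fold enrichment of 19.3 and 7.50. The relative height ratio of this separate peak was not computed.

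*Nfkbie*, which encodes IκBε, had the lowest promoter of the 10. Its rank was 20.4 and 24.3 in *GFI1-36S*, 38.6 and 23.8 in *GFI1-36N* BM, and 43.5 and 36.5 in *GFI1-KD* BM. In *GFI1-36N* mice the summit held 102 fragments with vehicle and 69 with curcumin, a relative height ratio of 0.673 (0.488 to 0.922), the 1 gene of 10 with an interval below 1 there, against 7.2% of all genes. *Nfkbia* and *Nfkbie* thus differed in opposite directions in that pair. Whether the 2 differ from each other beyond the spread between mice was not tested.

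*Ikbkb* encodes IKKβ, the kinase that marks IκB for degradation in the canonical branch. Its summit held 189 and 75 fragments in *GFI1-36S*, 242 and 203 in *GFI1-36N* BM, and 294 and 227 in *GFI1-KD* BM. Its rank was 89.9 and 56.4, 97.4 and 93.1, and 95.6 and 97.4, so that the *GFI1-36S* curcumin library was the only 1 of 6 in which it lay below 85. The relative height ratio there was 0.714 (0.539 to 0.938).

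*Tnfaip3* encodes A20, an enzyme that edits ubiquitin chains on signalling proteins and, like IκBα, is induced by NF-κB and shuts it off. Its rank was 80.7 and 67.9 in *GFI1-36S*, 62.2 and 78.8 in *GFI1-36N* BM, and 71.8 and 61.7 in *GFI1-KD* BM, higher with curcumin in *GFI1-36N* and lower in the other 2. The relative height ratio was 0.926 (0.706 to 1.21), 1.19 (0.942 to 1.5) and 0.895 (0.715 to 1.12), and each interval included 1. As for *Nfkbia*, the *GFI1-36N* vehicle library was the lowest of the 3 vehicle libraries. In *GFI1-KD* mice with curcumin the promoter peak was listed as 2 peaks of 1630 and 643 bp in place of 1 of 2841 bp.

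**Figure D2:**
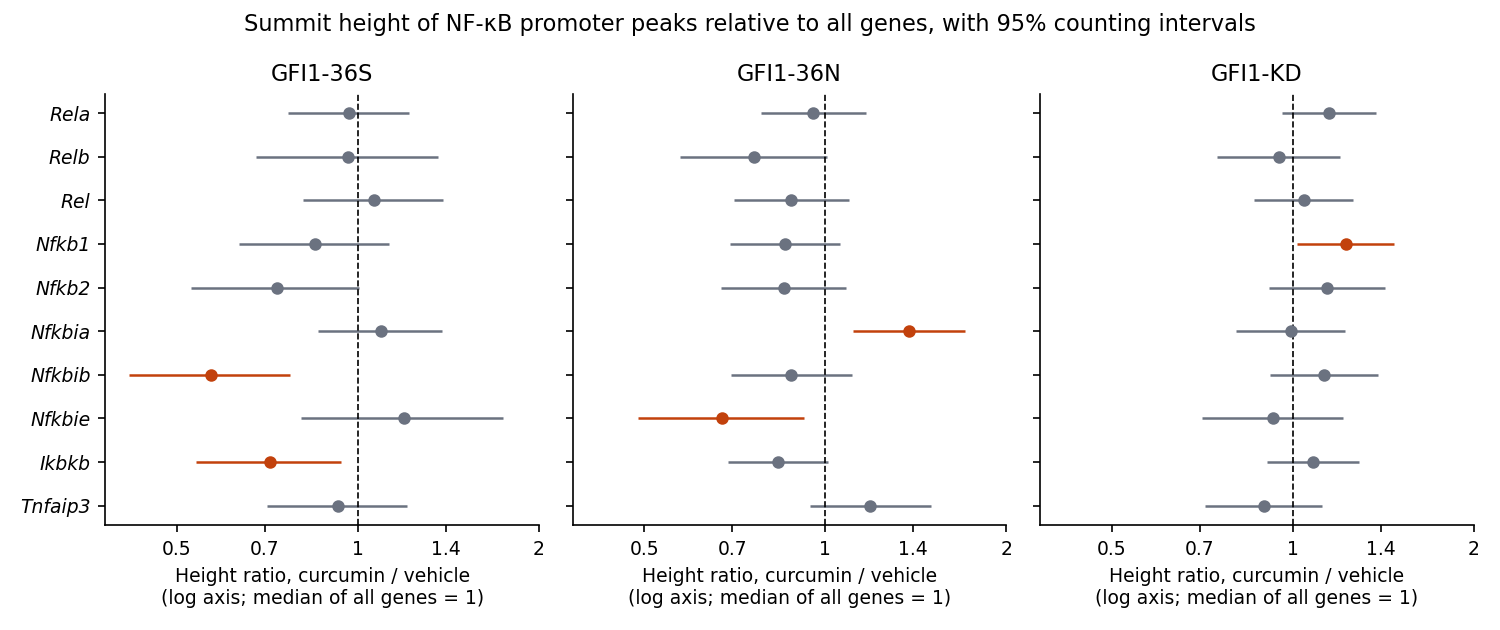
Summit height ratio of curcumin to vehicle for each gene relative to the median gene of the pair (x axis, log scale), with 95% counting intervals, and in orange where the interval leaves out 1. *Nfkbia* stands above 1 and *Nfkbie* below it in *GFI1-36N*, *Nfkbib* and *Ikbkb* stand below 1 in *GFI1-36S*, and *Nfkb1* stands above 1 in *GFI1-KD* mice.

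The width of the strongest promoter peak was compared as listed. In *GFI1-36S* mice the strongest peak was at least 1.5 times as wide with vehicle in 8 of 10 genes, all but *Rela* and *Nfkbie*, against 60.4% of all genes, and in none at least 1.5 times as wide with curcumin, against 1.9%. In *GFI1-36N* mice none passed this ratio in either direction, against 9.42% of all genes wider with curcumin and 6.17% with vehicle. In *GFI1-KD* mice *Nfkbia*, *Nfkbib*, *Nfkbie* and *Tnfaip3* were at least 1.5 times as wide with vehicle, against 27% of all genes, and none with curcumin, against 1.39%.

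A promoter can be listed as 1 peak in a library and as several in another. With peaks less than 500 bp apart joined, an alternative chosen after seeing the data, the *GFI1-KD* count was 1 gene of 10, *Nfkbia*, against 21.8% of all genes. The joined *Nfkbib* peak, for example, was 2830 bp with vehicle and 2729 bp with curcumin in *GFI1-KD* mice. *Nfkbia* kept its difference, at 5602 and 2290 bp. This depends on the limit, since its next peak with curcumin, of 393 bp, lay more than 500 bp away and was not joined. Other limits were not tried. In *GFI1-36S* mice the count was 7 of 10 after joining, against 56.1% of all genes.

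The peak of *Nfkbia* was the widest of the 10 genes in 4 of 6 libraries as listed, and in 3 of these 4 the single peak spanned the whole gene. It was 4901 bp with vehicle and 1313 bp with curcumin in *GFI1-36S*, 3333 and 4622 bp in *GFI1-36N* BM, and 5602 and 2290 bp in *GFI1-KD* BM. Peaks covered 100% of the 3238 bp gene with vehicle in *GFI1-36S* and *GFI1-KD* mice. In *GFI1-36N* mice they covered 97.2% with vehicle and 100% with curcumin. With curcumin the covered share was 78.5% in *GFI1-36S* and 65.9% in *GFI1-KD* mice. The summit rank differed by under 2 points in both of these pairs. In the *GFI1-KD* curcumin library the gene was covered by 3 peaks, and the one at its downstream end had 54 summit fragments and a fold enrichment of 9.12.

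**Figure D3:**
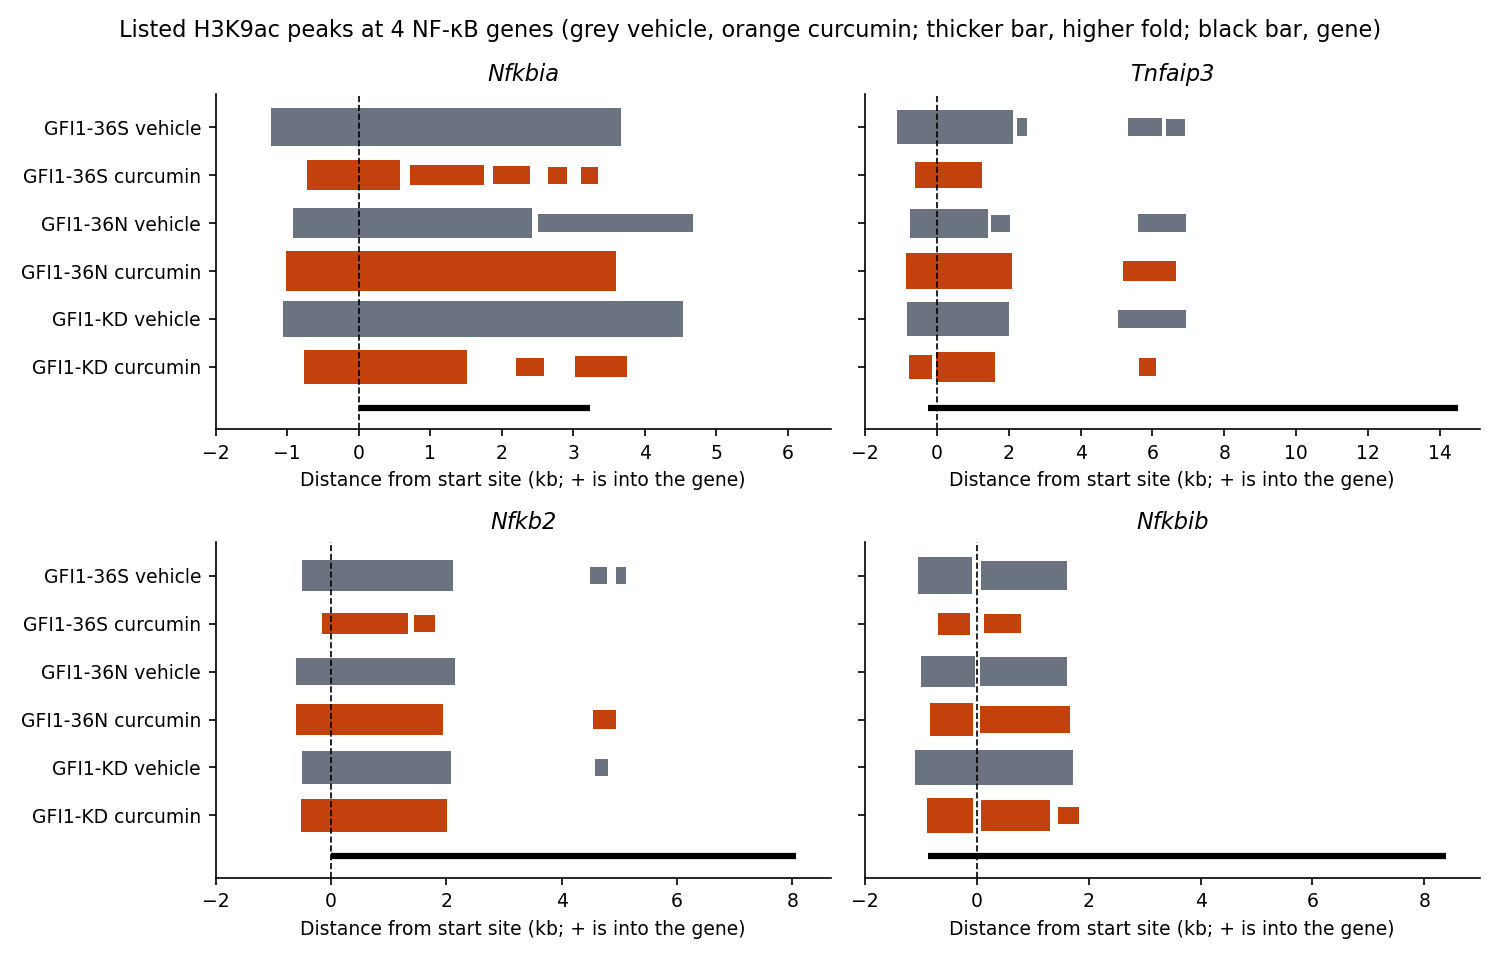
Listed H3K9ac peaks at *Nfkbia*, *Tnfaip3*, *Nfkb2* and *Nfkbib* by distance from the TSS in kb (x axis) in the 6 libraries, in grey for vehicle and orange for curcumin, with thicker bars for higher fold enrichment and the gene in black below. The single domain across *Nfkbia* with vehicle in *GFI1-36S* and *GFI1-KD* mice is broken into several peaks with curcumin, and in *GFI1-36N* mice the 2 peaks of vehicle are 1 peak with curcumin.

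Over the gene bodies of the 10 genes, 265046 bp in all, the share inside listed peaks with vehicle and then curcumin was 10.5% and 6.20% in *GFI1-36S*, 12.2% and 11.8% in *GFI1-36N* BM, and 11.7% and 9.87% in *GFI1-KD* BM. Over all 12557 genes with a promoter peak in any library, the shares were 4.27% and 2.07%, 4.19% and 4.64%, and 4.84% and 3.32%. A larger share of the NF-κB genes was therefore covered in every library. These shares pool the bases of all genes, so long genes weigh most, and gene length and promoter rank were not matched. In the *GFI1-36S* vehicle library the share was 100% for *Nfkbia*, of 3238 bp, and 4.75% for *Nfkb1*, of 106893 bp. In *GFI1-36S* mice all 10 genes were less covered with curcumin, in *GFI1-KD* mice 9 of 10, all but *Ikbkb*, and in *GFI1-36N* mice 5 of 10 were less covered, against 91.4%, 84.9% and 36.2% of all genes with a peak in the gene body in the pair.

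**Figure D4:**
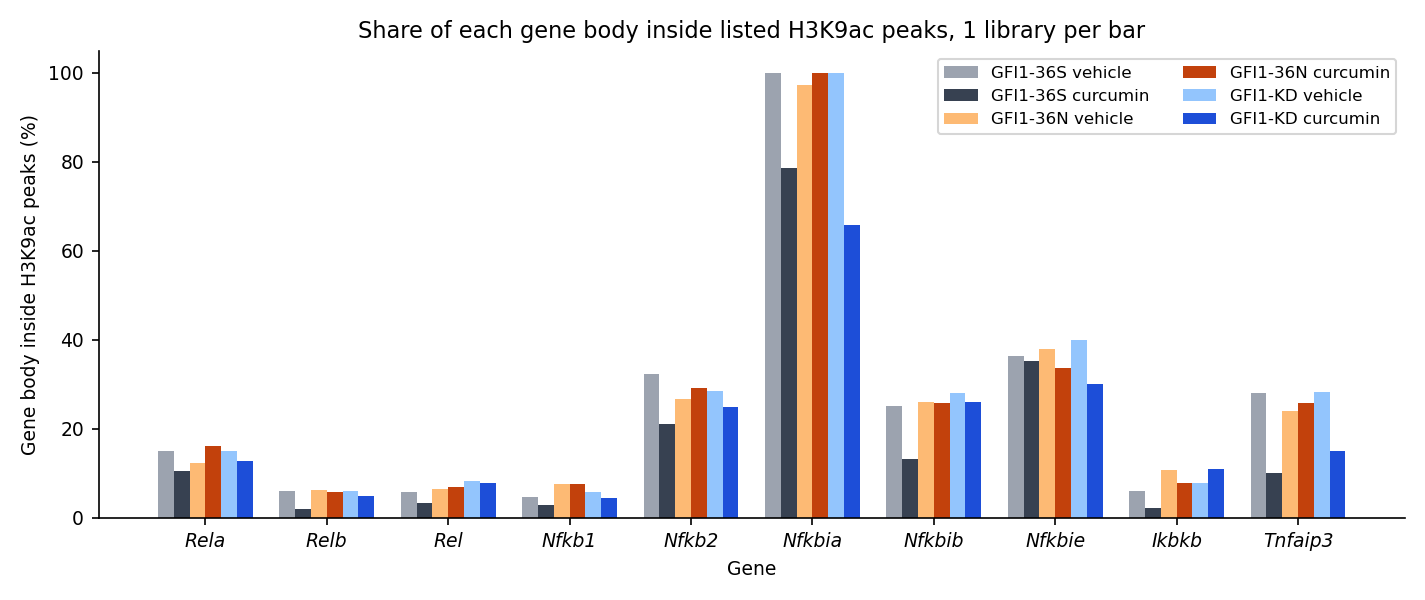
Percentage of each gene body inside listed H3K9ac peaks (y axis) for the 10 genes, with 1 bar per library. *Nfkbia* was covered to between 65.9% and 100%, and the highest share of another gene was 39.9%, for *Nfkbie*.

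Outside the promoters, the peaks of the 6 libraries fell into 35 regions, of which 2 were listed in all 6 libraries and 15 in a single library, where the fold enrichment did not pass 4.33. Of the 93 peaks behind them, 79 had their summit in an intron, 11 in an exon and 3 beyond the end of the gene. The strongest region lay in *Nfkb1* at chr3:135606587-135609081, where the summit of the strongest peak was 83400 bp from the TSS in an intron. There the fold enrichment with vehicle and then curcumin was 17.7 and 6.11 in *GFI1-36S*, 13.4 and 21.1 in *GFI1-36N* BM, and 19.6 and 15.1 in *GFI1-KD* BM. The summits held 118 and 36, 92 and 121, and 142 and 98 fragments, so the region was lower with curcumin in *GFI1-36S* and *GFI1-KD* and higher in *GFI1-36N* mice. The comprehensive gene annotation places 2 further start sites of *Nfkb1* inside it, at 135608270 and 135608483. At the promoter of the same gene the fold enrichment in *GFI1-36N* mice was 28.3 with vehicle and 29.4 with curcumin.

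The second region of all 6 libraries lay in an intron of *Ikbkb*, at chr8:22701194-22701893, with a fold enrichment of 5.63 and 4.81 in *GFI1-36S*, 9.49 and 10.4 in *GFI1-36N* BM, and 8.42 and 8.75 in *GFI1-KD* BM. Both other *Ikbkb* regions found in 5 libraries were missing from the *GFI1-36S* curcumin library alone. The same held for the intronic region of *Tnfaip3* at chr10:19008465-19010365, whose fold enrichment was 5.23 with vehicle in *GFI1-36S*, 4.17 and 6.58 in *GFI1-36N* BM, and 6.14 and 4.48 in *GFI1-KD* BM. It was higher with curcumin in *GFI1-36N* and lower in the other 2, the order its promoter had.

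To place these genes in their pathway, 78 other NF-κB genes were described by class, from receptors to targets. A promoter peak was listed, in either library of the pair or in both, for 65 of 78 in *GFI1-36S*, 68 in *GFI1-36N* and 69 in *GFI1-KD* BM. With curcumin, 5 ranked at least 10 points higher and 33 lower in *GFI1-36S*, 11 higher and 12 lower in *GFI1-36N*, and 8 higher and 18 lower in *GFI1-KD* mice. Over all genes the shares higher and lower were 15% and 41.4%, 19.3% and 11.3%, and 9.47% and 20.6% in the same order. The median change was −10.2, −2.0 and −4.05 points, below that of all genes in each genotype.

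Among 20 receptors and adaptors, the median change was −8.94, −3.03 and −5.43 points in *GFI1-36S*, *GFI1-36N* and *GFI1-KD* mice. *Tnfrsf1b*, a receptor of TNF, ranked 74.2 with vehicle and 9.44 with curcumin in *GFI1-36S* mice, and the peak of *Ltbr*, the lymphotoxin β receptor, ranked 59.6 with vehicle and was not listed with curcumin. *Traf5*, an adaptor, ranked 47.3 and 65.4 in that pair. In *GFI1-36N* mice the largest gain was that of the kinase gene *Irak4*, at 48.9 and 65.4, and the largest loss among genes with both peaks that of the kinase gene *Ripk1*, at 84.0 and 67.3. In *GFI1-KD* mice these were the Toll-like receptor gene *Tlr2*, at 58.3 and 77.9, and the adaptor gene *Myd88*, at 77.7 and 64.1.

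Among 15 upstream kinases, scaffolds and ubiquitin ligases, all had a promoter peak in both libraries of every pair, and the median change was −6.00, −1.02 and −2.44 points. *Sharpin*, a subunit of the linear ubiquitin ligase, had the largest gain in 2 genotypes, at 36.3 and 77.9 in *GFI1-36S* and 55.4 and 78.8 in *GFI1-36N* mice. *Map3k8*, a kinase that p105 holds inactive, had the largest loss in the same 2, at 47.0 and 5.68, and 61.1 and 38.7. In *GFI1-KD* BM *Map3k14*, which encodes the kinase NIK of the non-canonical branch, was at 45.9 and 62.3, and *Tab3*, a partner of the kinase TAK1, at 58.6 and 43.4.

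Among 13 other inhibitors and regulators, the median change was −12.8, −0.22 and −1.09 points. *Otulin*, a deubiquitinase of linear chains, ranked 46.8 and 70.3 and *Nfkbiz*, which encodes the nuclear protein IκBζ, 86.5 and 57.6 in *GFI1-36S* mice. The A20-binding protein gene *Tnip1* ranked 44.5 and 59.2 and *Nfkbid*, a nuclear IκB gene, 66.3 and 49.9 in *GFI1-36N* mice. In *GFI1-KD* BM *Tnip2*, another A20-binding protein gene, was at 53.0 and 70.6 and *Nfkbil1* at 71.8 and 39.0.

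Of 30 target genes, 19 to 21 had a promoter peak in a pair, and the median change was −16.9, −1.81 and −5.05 points. In *GFI1-36S* mice 0 of 19 ranked higher with curcumin by any amount, against 30.9% of all genes, and 8 had a peak with vehicle alone, against 16.2%, among them *Tnfaip2*, a TNF-induced gene, at a rank of 47.0. Of the 11 peaked in both lists, *Irf1*, a transcription factor of the interferon response, was nearest to no difference, at 57.5 and 56.4. In *GFI1-36N* mice 8 of 20 ranked higher by any amount, against 60.1% of all genes, and in *GFI1-KD* mice 8 of 21, against 37.1%. *Ier3*, an immediate early gene, had the largest loss in *GFI1-36S* mice, at 54.2 and 5.68, and the largest gain in *GFI1-36N* mice, at 41.02 and 76.6. It thus shared its direction in *GFI1-36N* mice with *Nfkbia* and *Tnfaip3*, while in the same pair the chemokine gene *Ccl3* was at 29.4 and 17.1. *Vcam1*, an adhesion molecule, had a peak with curcumin alone in *GFI1-36N* mice, at a rank of 23.0. In *GFI1-KD* BM *Zfp36*, which encodes an mRNA decay factor, ranked 72.9 and 85.9, and *Bcl2l1*, which encodes the survival factor BCL-XL, 94.5 and 62.0.

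**Figure D5:**
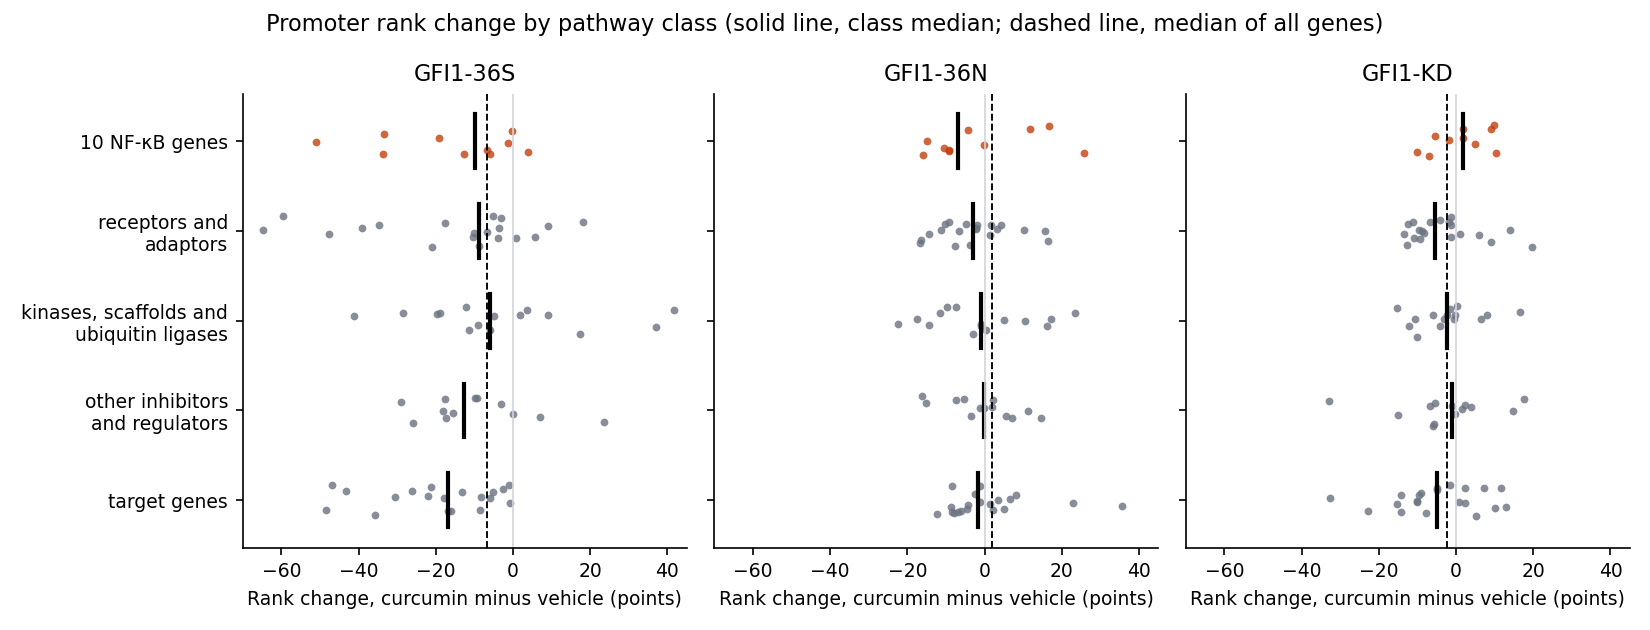
Change in promoter rank with curcumin in points (x axis) for the 10 NF-κB genes (orange) and the 4 classes of other pathway genes (grey) with a peak in the pair, 1 point per gene, with a solid line at the class median and a dashed line at the median of all genes. The target genes lie at or below 0 in *GFI1-36S* mice, with a median of −16.9, and around 0 in *GFI1-36N* mice, where *Ier3* is the point farthest to the right.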

How the data were processed

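H3K9ac ChIP-seq libraries (antibody ab4441) of 3 genotypes with vehicle or curcumin were used, and an input and a rabbit IgG sample were not used here. The authors trimmed the reads with Trim Galore, mapped them to mm10 with BWA-MEM, called peaks per library with MACS2 and removed black list regions. Fold enrichment, as deposited, is a ratio, that of the summit fragments to the local background, and the deposited −log10 p and −log10 q come from the same peak caller. The control of each list, the threshold and the handling of duplicates are not given in the sources used here.

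Genes and TSSs were those of the GENCODE M21 basic set for mm10. A promoter spanned 1000 bp on each side of any TSS, and 1 bp was the minimum overlap. Whole fragments were recovered within 0.002 on the −log10 p scale from the MACS2 relation of fold enrichment and p, or else, where none matched, from the genome background. Summit heights were divided by that background. Intervals are exact Poisson bounds for ranks and exact binomial bounds for ratios, at 95%. Analyses used pandas 2.3.3, scipy 1.17.1 and numpy 2.4.6 under Python 3.11.15, with matplotlib 3.10.9 for the plots. The recovery of fragments was tested on simulated peaks. Ranks were tested on the *GFI1-KD* vehicle list with some peaks lowered or removed, and the other steps were not tested in this way.

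The 10 genes, the lists and the rules were chosen with earlier results of these data known. All 10 genes are named, and of the other pathway genes the largest gain and loss per class and genotype among those with a peak in both libraries, and those with a peak in 1 library of a pair at a rank of 20 or higher. Marker lists held 14 neutrophil, 10 monocyte and macrophage, 14 T cell, 10 B cell, 11 erythroid and 11 stem and progenitor genes, and B cell genes had 0 to 3 promoter peaks per library. *Lcn2* is in both the neutrophil and the target list.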

Additional observations from a re-analysis of the deposited data

Results flagged for a closer look

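The promoters of 2 genes changed by at least 10 points in opposite directions between genotypes, and with 1 library per group these differences between genotypes were not tested. *Nfkb2* changed by −33.7 points with curcumin in *GFI1-36S* mice, by 11.8 in *GFI1-36N* and by 10.3 in *GFI1-KD* mice. *Tnfaip3* changed by 16.6 points in *GFI1-36N* mice, by −12.8 in *GFI1-36S* and by −10.1 in *GFI1-KD* mice. The rank intervals of vehicle and curcumin overlapped in each of these except *Nfkb2* in *GFI1-36S* mice. Every relative height interval of both genes included 1, and that ratio for *Nfkb2* in *GFI1-36N* mice was 0.854, the opposite direction to its rank. In *GFI1-KD* mice the change stayed at 10 points or more in 7 of 10 alternatives for *Nfkb2* and in 6 for *Tnfaip3*.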

How the results depend on the processing

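Counting error and 1 library per group set the limits, and no paired analysis was possible because no group has a second library. The median change of the 10 genes kept its direction in every genotype under the 10 alternatives in peaks, windows, gene sets and ranks, and as log2 relative height it was −0.082 in *GFI1-36S*, −0.20 in *GFI1-36N* and 0.087 in the *GFI1-KD* pair.

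With the *GFI1-36S* treatments exchanged, by construction, the median became 9.83, the counts of higher and lower genes 5 and 0, the covered share 4.33 points higher, and *Nfkb1*, *Nfkb2*, *Nfkbib*, *Ikbkb* and *Tnfaip3* changed by 19.3, 33.7, 51.0, 33.5 and 12.8 points. *Nfkb2* in *GFI1-36N* mice reversed to −4.10 points when ranked by −log10 p and to −0.23 as log2 relative height.

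Counts moved as follows. In *GFI1-KD* mice, where *Nfkb1*, *Nfkb2*, *Nfkbib* and *Tnfaip3* lay near 10 points, the number higher was 2 with −log10 q of at least 5 and with autosomes only, 3 with equal numbers of top peaks and with genes peaked in both libraries, and 0 with the 3 kb window and with all biotypes, and the number lower was 0 with −log10 q of at least 5, with summits inside the window, with genes peaked in both libraries and with all biotypes. In *GFI1-36N* mice 5 were lower with equal numbers of top peaks and with genes peaked in both libraries, and in *GFI1-36S* mice 1 was higher with the latter. Joining near peaks left 1 gene wider with vehicle in *GFI1-KD* mice.

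The change in covered share was, in the order *GFI1-36S*, *GFI1-36N*, *GFI1-KD*, −3.59, −0.93 and −1.58 points with −log10 q of at least 5, and −2.74, −0.53 and −1.29 with equal numbers of top peaks. The median change of the other pathway genes was −7.47, −3.11 and −3.38 with equal numbers of top peaks and −9.85, −1.95 and −3.40 when ranked by −log10 p.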
